A study of Homo sapiens with 4 samples.

Results

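The TGF-beta and BMP signaling genes examined here are a fixed family list of 60 genes, made up of 26 ligands, 12 receptors, 8 SMADs, 4 intracellular regulators and 10 extracellular regulators. For each gene, every differentially methylated tile that overlapped its annotated span extended by 5 kb on each side was taken. A tile is a window of 1000 bp over which the methylation of the CpGs was pooled, and a listed tile is one that passed the thresholds of the deposited tables, a methylation difference of at least 25 percentage points with a q-value under 0.01. Of the 72455 tiles listed in any of the 3 tables, 184 belonged to these genes, and 44 of the 60 genes had at least 1.

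Reduced representation bisulfite sequencing (RRBS) reads the methylation of CpGs at the ends of short fragments cut by the enzyme MspI, and it was applied to clones of SKOV3, an established line of epithelial ovarian cancer. LY75 (CD205) is an endocytic receptor, and 4 libraries were made, 1 per clone, so no clone has a replicate. ShC-S carries a control shRNA, and Ly75-OV-S overexpresses LY75 in cells that carry the LY75 shRNA; both are mesenchymal-like (SKOV3-M). ShLy75-S carries the shRNA against LY75, and Ly75-KO-S lost LY75 through CRISPR; both are epithelial-like (SKOV3-E). Every clone has a SKOV3 background, and Ly75-OV-S derives from knockdown cells whereas Ly75-KO-S is a separate clone, so that clonal differences and the loss of LY75 cannot be told apart. The tables compare ShC-S with ShLy75-S, Ly75-OV-S with Ly75-KO-S, and both M clones with both E clones (the mix), which uses the same 4 libraries and is not an independent comparison. All differences and q-values below are those of the deposited tables, the q-values compare libraries rather than conditions, and the read depth behind each tile is unknown.

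A positive difference is read here as higher methylation in the E clone. For ShC-S vs. ShLy75-S, this order was settled with 10 genes whose direction is stated in the study, all 10 of which had the matching sign. For Ly75-OV-S vs. Ly75-KO-S, it rests on the mix, whose values over the 4250 tiles in all tables followed a positive combination of both single comparisons (weights 0.534 and 0.435). The name of that table puts Ly75-KO-S first, and read by name alone all of its signs would reverse. The tables hold no expression values, so neither the loss of LY75 nor the level of any signaling gene could be checked.

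In this pathway, dimeric ligands bind pairs of type I and type II serine/threonine kinase receptors, which phosphorylate receptor-regulated SMADs. These join SMAD4, the common partner, and enter the nucleus. TGF-beta, activin and NODAL act mainly through SMAD2 and SMAD3, and BMPs through SMAD1, SMAD5 and SMAD9, while SMAD6 and SMAD7 inhibit the pathway. Secreted antagonists such as NOG, CHRD and GREM1 hold BMPs away from their receptors, and latent TGF-beta binding proteins (LTBPs) anchor latent TGF-beta in the matrix. TGF-beta is a known inducer of epithelial-mesenchymal transition, and BMP signaling is known in the ovary and its tumors.

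The sequences below come from the tiles on which the main results turn. Each is a window of 200 bases of the GRCh37 (hg19) reference, forward strand, chosen within its tile to avoid annotated UTRs and to hold the most CpGs that RRBS reads could cover. Capitals mark those CpGs, predicted from MspI fragments of 40 to 220 bp read for 50 bases from each end.
BMP4 chr14:54423544-54423743: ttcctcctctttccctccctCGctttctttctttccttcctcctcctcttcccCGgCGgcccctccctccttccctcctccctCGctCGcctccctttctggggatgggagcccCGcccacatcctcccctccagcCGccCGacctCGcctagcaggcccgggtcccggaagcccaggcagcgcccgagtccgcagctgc
GDF7 chr2:20865788-20865987: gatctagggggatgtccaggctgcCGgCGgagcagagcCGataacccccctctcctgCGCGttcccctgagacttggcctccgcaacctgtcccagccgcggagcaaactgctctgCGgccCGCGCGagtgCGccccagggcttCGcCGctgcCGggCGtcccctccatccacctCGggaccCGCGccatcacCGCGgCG
BMP6 chr6:7728001-7728200: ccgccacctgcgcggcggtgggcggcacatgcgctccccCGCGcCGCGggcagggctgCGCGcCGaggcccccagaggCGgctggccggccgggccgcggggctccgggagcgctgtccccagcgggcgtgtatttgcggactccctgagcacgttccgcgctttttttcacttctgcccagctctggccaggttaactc
TGFB2 chr1:218520187-218520386: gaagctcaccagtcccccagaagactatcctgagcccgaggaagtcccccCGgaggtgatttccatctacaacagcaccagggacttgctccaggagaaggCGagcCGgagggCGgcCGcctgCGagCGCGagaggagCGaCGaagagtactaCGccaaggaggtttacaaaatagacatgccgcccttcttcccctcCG
BMP7 chr20:55758686-55758885: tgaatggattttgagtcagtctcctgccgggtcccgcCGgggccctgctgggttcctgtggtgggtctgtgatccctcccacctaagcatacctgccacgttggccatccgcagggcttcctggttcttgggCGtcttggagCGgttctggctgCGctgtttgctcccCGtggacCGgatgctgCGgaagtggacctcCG
SMAD7 chr18:46449191-46449390: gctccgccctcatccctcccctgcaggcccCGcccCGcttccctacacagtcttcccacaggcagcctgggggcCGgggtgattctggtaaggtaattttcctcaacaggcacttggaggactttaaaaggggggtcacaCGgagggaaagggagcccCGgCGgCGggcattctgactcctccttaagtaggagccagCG
SMAD6 chr15:66998800-66998999: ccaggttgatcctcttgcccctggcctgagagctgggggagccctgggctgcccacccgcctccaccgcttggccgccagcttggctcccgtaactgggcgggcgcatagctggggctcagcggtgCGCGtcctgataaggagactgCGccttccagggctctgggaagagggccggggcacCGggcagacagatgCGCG
LTBP4 chr19:41107073-41107272: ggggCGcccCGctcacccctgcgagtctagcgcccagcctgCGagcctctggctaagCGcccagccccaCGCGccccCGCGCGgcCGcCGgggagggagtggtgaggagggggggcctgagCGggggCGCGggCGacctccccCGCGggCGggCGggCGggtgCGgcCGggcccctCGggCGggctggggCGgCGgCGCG
GREM1 chr15:33009528-33009727: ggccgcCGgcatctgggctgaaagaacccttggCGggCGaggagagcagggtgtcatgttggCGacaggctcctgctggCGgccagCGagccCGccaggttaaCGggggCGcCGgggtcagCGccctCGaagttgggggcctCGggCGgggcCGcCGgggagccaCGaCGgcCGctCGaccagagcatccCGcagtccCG
The windows of LTBP4, GREM1 and GDF7 come from tiles within 2 kb of a transcription start site (TSS) and held 28, 22 and 20 CpGs within reach. The BMP4 window stands for the tile of the canonical TSS, which was lower in the E clones throughout the tables. BMP6 and TGFB2 are shown for near-complete or large losses close to the start, BMP7 for a complete gain in exon 4 of 7, SMAD7 for a gain found in all tables, and SMAD6 for opposite signs in the single comparisons.

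Listed tiles lay within the extended span of 40 member genes in ShC-S vs. ShLy75-S (66.7%), of 33 in Ly75-OV-S vs. Ly75-KO-S (55%) and of 25 in the mix (41.7%). Over all 20136 protein-coding genes, the shares were 60.3%, 46.8% and 38.3%. The members had a median span of 38960 bp against 27217 bp over all protein-coding genes. The part of span length in these shares was not tested. Counted instead over the 993 tiles near these genes that RRBS reads could reach, 11.3%, 6.55% and 5.04% were listed, against 12.6%, 6.67% and 5.20% of all 371631 such tiles of the genome. The density of differential methylation over the pathway thus lay close to that of the genome in each table. Tiles within 2 kb of a TSS were listed for 27 member genes (45%) in ShC-S vs. ShLy75-S, 17 (28.3%) in Ly75-OV-S vs. Ly75-KO-S and 15 (25%) in the mix, and the shares of all genes were 30.2%, 14.2% and 15.2%. The members lay above all genes here in each table, a difference that was not tested. These shares count any annotated TSS of a gene and were not related to the tiles within reach. Without tiles shared with genes outside the list, 21, 13 and 11 members remained, and no such count was made over all genes.

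By direction, 75 of 124 tiles were higher and 49 lower in ShLy75-S than in ShC-S. In Ly75-OV-S vs. Ly75-KO-S, 45 of 75 tiles were higher and 30 lower, and in the mix 30 of 53 were higher and 23 lower. Over all listed tiles, 64.7%, 54.7% and 65.0% were higher, against 60.5%, 60% and 56.6% of the member tiles. The median absolute difference of the member tiles was 50 points, 46.6 points and 36.0 points in these tables, and over all listed tiles 50, 41.9 and 36.9. BMP7, the gene with the most higher tiles, held 14 of the 75 in ShC-S vs. ShLy75-S. Without it, 61 of 110 tiles were higher (55.5%), and in the mix 23 of 46 (50%).

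**Figure D1:**
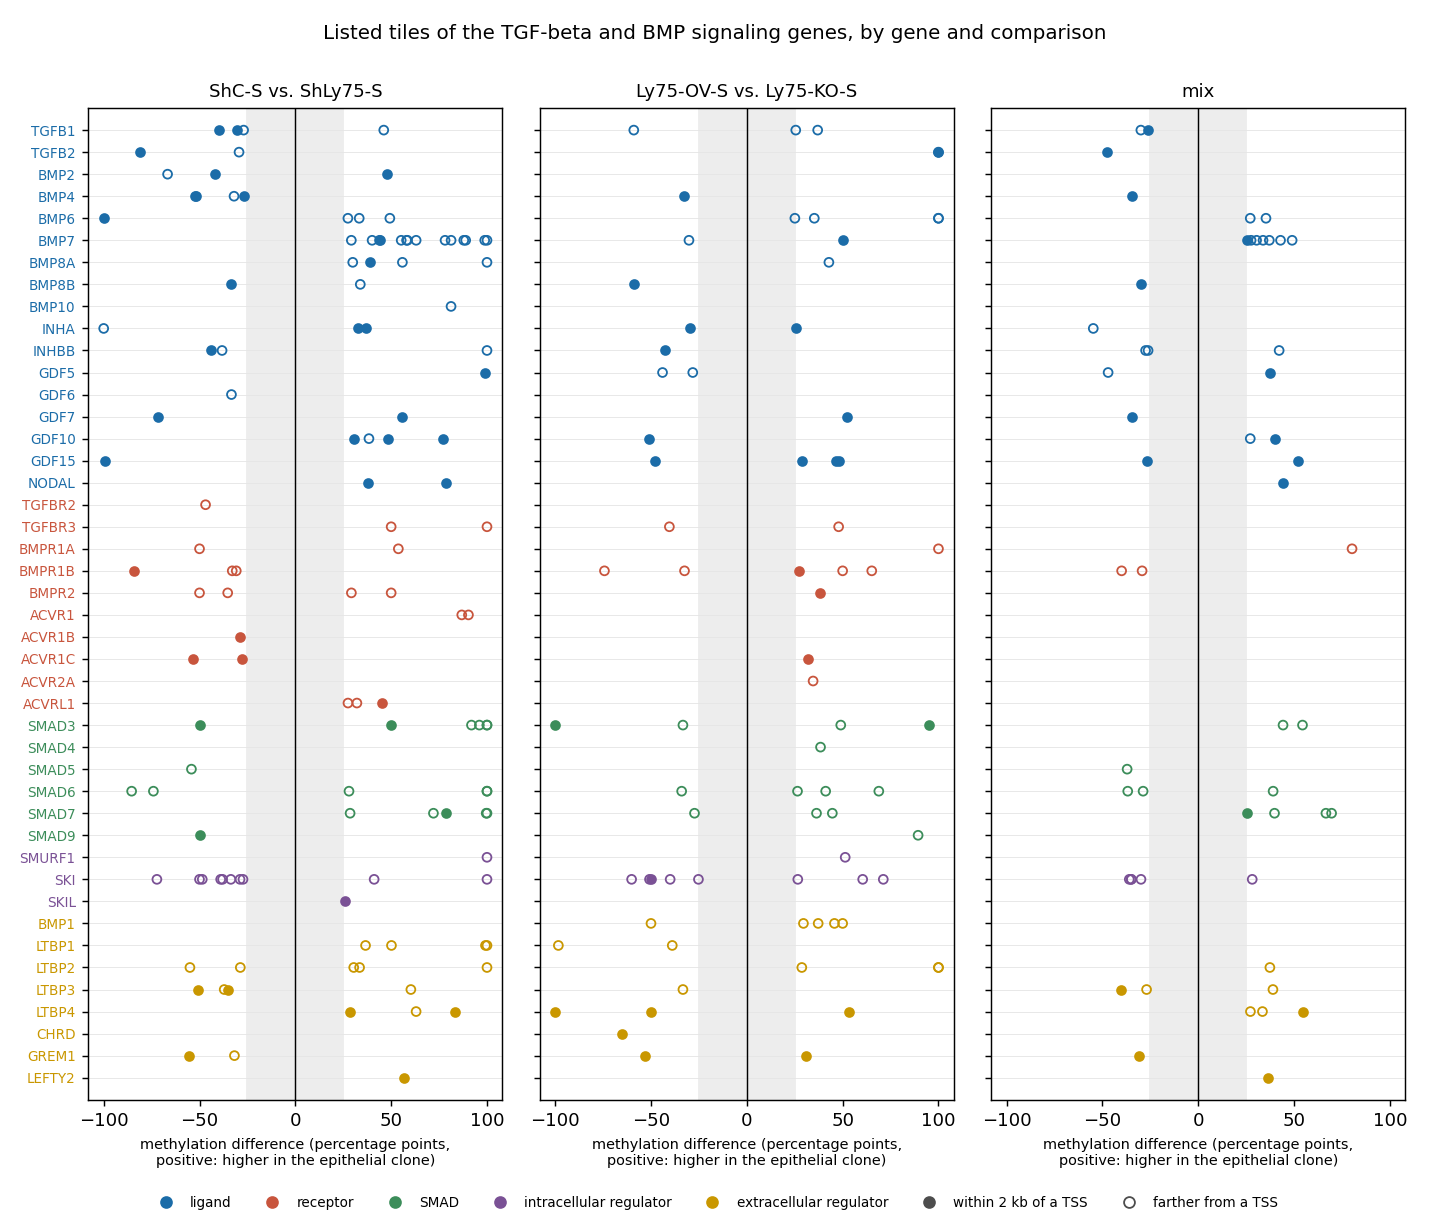
Each point is 1 listed tile of a member gene, placed by its methylation difference in percentage points (x axis, positive for higher in the E clone) and its gene (y axis), with 1 panel per comparison. Colors give the role, filled points lie within 2 kb of a TSS, and the gray band marks differences under 25 points, which the tables do not list. BMP7 stands out with 14 tiles, all higher, in ShC-S vs. ShLy75-S, and 8 of the 10 SKI tiles in the same panel are lower.

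Direction is given next for tiles near start sites and for those in gene bodies and flanks. In ShC-S vs. ShLy75-S, 19 tiles near a TSS were higher and 21 lower, and farther away 56 were higher and 28 lower. Over all listed tiles of that table, 55.6% were higher near a TSS and 66.4% farther away. In Ly75-OV-S vs. Ly75-KO-S, 13 of 25 tiles near a TSS and 32 of 50 farther away were higher, beside 53.3% and 54.9% of all listed tiles. In the mix, these were 8 of 16 and 22 of 37, beside 55.3% and 66.9%.

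Member tiles were also divided by the number of CpGs they hold. In ShC-S vs. ShLy75-S, of the 41 member tiles with fewer than 20 CpGs, 33 were higher (80.5%), whereas 11 of the 25 tiles with 50 or more CpGs were higher (44%). Of the 58 tiles between, with 20 to 49 CpGs, 31 were higher (53.4%). Over all listed tiles of the sparse, middle and dense classes, 61.9%, 69.8% and 58.2% were higher. Without BMP7, the shares of the members were 77.8%, 46% and 41.7%. In Ly75-OV-S vs. Ly75-KO-S, 61.3% of 31 tiles, 60% of 40 tiles and 2 of 4 tiles were higher in the same classes, and in the mix 73.3% of 15, 51.7% of 29 and 44.4% of 9. Differences of 100 points, in which 1 clone was read as fully methylated and the other as unmethylated, were found in 14 member tiles of ShC-S vs. ShLy75-S and 9 of Ly75-OV-S vs. Ly75-KO-S. These were 11.3% and 12% of the member tiles, near the 13.1% and 9.37% of all listed tiles. The 23 tiles held a median of 19 CpGs against 23 in the other member tiles, and 20 of them were higher in the E clone. How few reads may stand behind them is unknown.

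**Figure D2:**
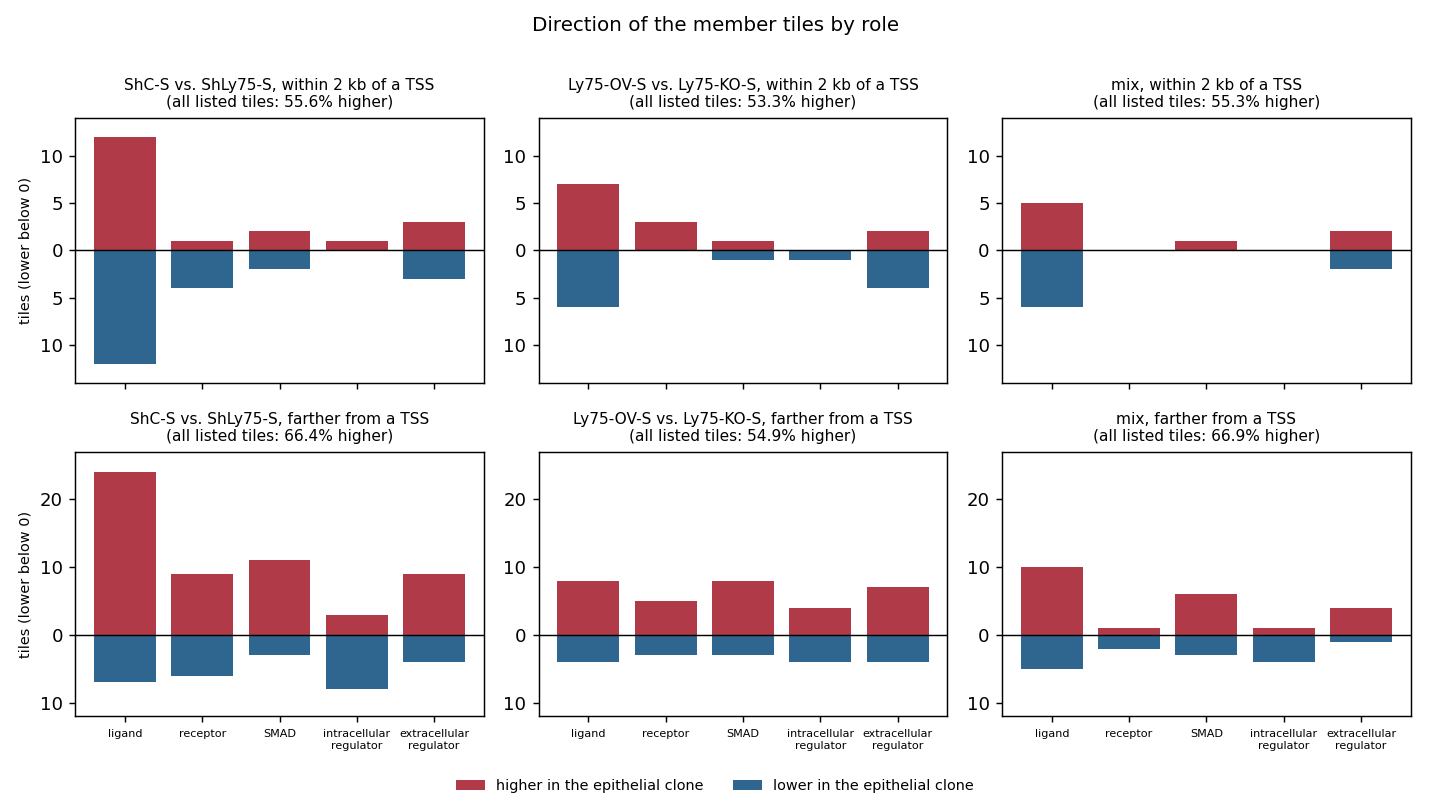
Bars count the member tiles higher (red, above 0) and lower (blue, below 0) in the E clone for each role (x axis), with tiles within 2 kb of a TSS in the upper row and farther tiles in the lower row, for each comparison. Panel titles give the share of higher tiles among all listed tiles of the same kind. For ligands in ShC-S vs. ShLy75-S, 12 tiles were higher and 12 lower near a TSS, and 24 higher and 7 lower farther away, or 11 higher and 7 lower farther away without BMP7.

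Ligands held 55 of the 124 tiles in ShC-S vs. ShLy75-S, spread over 17 of 26 genes, with 36 higher and 19 lower, and 22 higher and 19 lower without BMP7. Of the tiles around ligands that RRBS could reach, 17.7% were listed in this table, compared with 6.33% around receptors, 11.7% around SMADs, 9.4% around intracellular regulators and 8.22% around extracellular regulators. Without BMP7, the share around ligands was 15.1%, and over the genome it was 12.6%. In Ly75-OV-S vs. Ly75-KO-S, ligands had 8%, receptors 3.62%, SMADs 6.57%, intracellular regulators 7.69% and extracellular regulators 6.85%, beside 6.67% over the genome. In the mix, these shares were 8%, 0.905%, 7.30%, 4.27% and 4.11%, beside 5.20%. The differences between roles were not tested. In Ly75-OV-S vs. Ly75-KO-S, 13 ligand genes held 25 tiles, 15 of them higher, and in the mix 13 genes held 26 tiles, also with 15 higher. Without BMP7, 8 of 19 ligand tiles in the mix were higher.

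BMP7, a BMP ligand with roles in kidney development and in epithelial differentiation, had the most listed tiles of any member in ShC-S vs. ShLy75-S. All 14 were higher in the knockdown clone, from 29.2 to 100 points, with a median of 60.7. They ran from the tile 1697 bp after the canonical TSS, at 44.2 points, to that of exon 7 of 7, at 78.1 points (q = 4.28e-48). Exon 4, printed above, reached 100 points (q = 1.94e-103), and the introns around it 87.9, 88.9 and 43.9 points. In the mix, 7 of these tiles remained listed, all higher, between 25.6 and 49 points. Ly75-OV-S vs. Ly75-KO-S listed only 2 BMP7 tiles. The tile upstream of the start was 50 points higher in Ly75-KO-S, and that at chr20:55835001-55836000 in the first part of the gene was lower by 30.2 points, although it was 58.0 points higher in ShLy75-S and 37.1 points higher in the mix. Around BMP7, 35 tiles were predicted to be within reach of RRBS reads, and 15 tiles were listed in at least 1 table. The listed tile chr20:55831001-55832000 was not among the 35.

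BMP4, a BMP ligand of early mesoderm, changed the opposite way. The tile of its canonical TSS (chr14:54423001-54424000, 48 CpGs) had -51.7 points in ShLy75-S, -32.9 points in Ly75-KO-S and, in the mix, -34.4 points. It is the only member tile at a canonical TSS listed with the same sign in all tables. In ShC-S vs. ShLy75-S, the following 2 tiles were also lower, with differences of -52.5 and -27.0 points, as was exon 4 of 4 with -32.0 points. BMP4 was thus the only member with 4 or more tiles in that table that were all lower. BMP7, BMP8A, GDF10, LTBP1 and SMAD7 were those with 4 or more tiles that were all higher, and 8 further genes held both signs. No such count was made over all genes. Of all listed tiles in that table, 64.7% were higher, and neighboring tiles are not independent.

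The TGF-beta ligands changed in different tables and places. Tile chr1:218520001-218521000 in exon 1 of 7 of TGFB2, with 49 CpGs, was lower by 81.0 points in ShLy75-S (q = 9.87e-94) and by 47.8 points in the mix. In Ly75-KO-S this tile was not listed, and the tiles listed there, 1 near the TSS with 6 CpGs and 1 in an intron with 13 CpGs, were higher by 100 points. TGFB1, the prototype of the family, had a pair of adjoining tiles near an alternative start with differences of -30.3 and -39.6 points in ShLy75-S. Its intron tiles were mixed, with 46.1 points and -27.0 points in ShLy75-S and -59 points and 37 points in Ly75-KO-S. The former pair and several other TGFB1 tiles also overlap neighboring genes, TMEM91 and CCDC97 among them.

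Of the other BMP ligands, BMP6 had the greatest loss. Its intron tile 1669 bp from the TSS (chr6:7728001-7729000, 66 CpGs) was lower by 99.9 points in ShLy75-S, whereas its 3 other tiles in that table, deeper in the gene, were higher by 27.4 to 49.3 points. In Ly75-KO-S, all 4 BMP6 tiles were higher, by 25.1 to 100 points, and none of them was shared with ShLy75-S. BMP2, a close relative of BMP4, changed from 48.1 points in its exon 1 to -41.8 and -66.7 points in the following tiles, and was listed in ShC-S vs. ShLy75-S alone. BMP8A was higher in ShLy75-S in all 4 tiles, including 38.8 points upstream of the start, and BMP8B had -33.5 points in exon 1 and, in Ly75-KO-S, -59.1 points upstream of the start. BMP8A and BMP8B are close copies of each other, so reads may be split between them and their values are uncertain. BMP10, a ligand of the heart, had a single tile of 81.3 points in exon 2 of 2.

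Among the growth differentiation factors, GDF7, GDF10 and GDF15 had tiles of opposite sign in the single comparisons. The GDF7 tile 904 bp upstream of the start (chr2:20865001-20866000, 75 CpGs) was lower by 71.4 points in ShLy75-S and higher by 52.1 points in Ly75-KO-S, and the next tile, in exon 1, was higher by 55.7 points in ShLy75-S. GDF15, a distant member of the family that is induced by cell stress, was lower by 99.2 points in ShLy75-S at its canonical TSS (q = 7.68e-63) and higher by 28.7 points in Ly75-KO-S at the same tile. The tile after it fell by 47.9 points in Ly75-KO-S, was not listed for ShLy75-S and was 52.0 points higher in the mix. GDF10 showed a run of 3 adjoining higher tiles at its start in ShLy75-S, with 48.1 points at the TSS, 76.9 points in exon 1 and 30.6 points in the intron. The last of these was lower by 50.8 points in Ly75-KO-S. GDF5, known from joint development, was higher by 99.2 points near an alternative start in ShLy75-S, and both of its tiles in Ly75-KO-S were lower, with -44 and -28.2 points. The only listed tile of GDF6 was lower by 33.3 points in ShLy75-S.

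Among the activin and NODAL ligands, NODAL was higher in both of its tiles near the TSS in ShLy75-S, by 37.7 and 78.5 points, the latter with 44.3 points in the mix. INHA, the inhibin alpha subunit that counters activin, had a tile 32 bp from the TSS that was higher in both E clones, by 36.7 and 25.8 points. The neighboring tile with 133 CpGs had 32.5 points in ShLy75-S and -29.6 points in Ly75-KO-S. Upstream of them, a tile had -100 points in ShLy75-S and -54.8 points in the mix. The INHA tiles also overlap OBSL1. INHBB, the beta B subunit of activin and inhibin, was lower in both E clones near its start, but in different tiles, with -44 points in exon 1 in ShLy75-S and -42.8 points in the next tile in Ly75-KO-S.

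Receptors held fewer tiles, 20 over 9 of 12 genes in ShC-S vs. ShLy75-S, 11 over 6 genes in Ly75-OV-S vs. Ly75-KO-S and 3 over 2 genes in the mix. Near a TSS, 4 of 5 receptor tiles were lower in ShLy75-S, and all 3 in Ly75-KO-S were higher. Over all listed tiles near a TSS, 55.6% and 53.3% were higher in these comparisons. The tiles differ between the comparisons, and only that of ACVR1C at chr2:158454001-158455000 was listed in both. ACVR1C, a type I receptor for NODAL and activin, had -53.7 and -28.0 points in adjoining tiles at an alternative start in ShLy75-S, and the second of them was higher by 31.8 points in Ly75-KO-S. ACVR1B, a type I activin receptor, was lower by 29.0 points near its start in ShLy75-S. ACVRL1, a type I receptor of endothelium, was the exception, with 45.0 points at an alternative TSS and 27.5 and 32.1 points in its body.

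The BMP receptor BMPR1B was the receptor with the most listed tiles, 6 in any table. At chr4:95794001-95795000, in an intron, its differences were -32.9, -32.5 and -29.3 points (the mix last), which is the closest match between the single comparisons of any member tile. At chr4:95920001-95921000, the values were -30.8, -74.3 and -40 points in the same order, over 4 CpGs. An exon tile at an alternative start had -84.3 points in ShLy75-S, and the tile beside the canonical start had 27.3 points in Ly75-KO-S. Also higher in Ly75-KO-S were an intron tile, by 65.2 points, and a downstream tile that overlaps UNC5C, by 50 points. In that comparison, 3 BMPR1B tiles were thus higher and 2 lower. BMPR1A, the related type I receptor, had opposite values in the same intron tile, -50 points in ShLy75-S and 100 points in Ly75-KO-S. A nearby BMPR1A tile was 53.8 points higher in ShLy75-S and 80.2 points higher in the mix, the largest positive member value in the mix.

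BMPR2, the type II BMP receptor, was higher by 38.2 points 1050 bp upstream of its start in Ly75-KO-S. In ShLy75-S its 4 tiles were divided, with 50 and 29.2 points in introns and -35.3 and -50 points in the flanks. ACVR1, a type I BMP receptor, was higher by 86.8 and 90.3 points in introns in ShLy75-S. The TGF-beta receptors had tiles in introns only, with -46.8 points for TGFBR2 in ShLy75-S and with 100 and 50 points in ShLy75-S against -40.4 and 47.9 points in Ly75-KO-S for TGFBR3 (betaglycan, a co-receptor). ACVR2A, a type II activin receptor, had 1 tile, with 34.6 points in Ly75-KO-S.

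SMAD genes showed the largest differences of any role in ShC-S vs. ShLy75-S, with a median absolute value of 82.1 points over 18 tiles, beside 50 points over all member tiles. Of these tiles, 13 were higher and 5 lower. They came from 5 of the 8 genes, with 16 of the 18 in SMAD3, SMAD6 and SMAD7. This rank did not hold in Ly75-OV-S vs. Ly75-KO-S. There the SMAD median was 41.1 points over 13 tiles, 9 of them higher, below the 46.6 points over all member tiles. Intracellular regulators had the largest median in that comparison, 50.8 points over 9 tiles.

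SMAD7, the inhibitory SMAD that blocks TGF-beta receptors, was higher in ShLy75-S in all 5 of its tiles, which had 28.6, 72.1, 78.7, 99.6 and 100 points. The tile with 78.7 points lies within 2 kb of the TSS and holds 67 CpGs (chr18:46475001-46476000, q = 1.95e-156), and its mix value was 25.5 points. The intron tile chr18:46449001-46450000 was higher in every table, with 72.1 points in ShLy75-S, 36.4 in Ly75-KO-S and 66.6 for the mix. Another intron tile had 44.6 points in Ly75-KO-S and, for the mix, 39.8 points. In the 5′ flank, 1 tile with 8 CpGs was lower by 27.3 points in Ly75-KO-S.

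SMAD6, the inhibitory SMAD that acts mainly on BMP signaling, reversed between the single comparisons in adjoining intron tiles. At chr15:66998001-66999000, the difference was -74.1 points in ShLy75-S and 68.9 points in Ly75-KO-S, and in the next tile -85.4 and 41.1 points. In the mix, both kept the sign of ShLy75-S, with -28.8 and -36.8 points. Farther into the gene, ShLy75-S was higher by 100 points in 2 tiles and by 28 points in another.

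SMAD3, which carries TGF-beta and activin signals, differed between its start and its body in ShLy75-S. The tile of the canonical TSS (chr15:67357001-67358000, 91 CpGs) was lower by 49.5 points in ShLy75-S, and the tile before it was lower by 100 points in Ly75-KO-S. In the body, 5 tiles were higher in ShLy75-S, by 50, 91.9, 96.0, 100 and 100 points. The first of these, near an alternative start, was also higher in Ly75-KO-S, by 95.2 points. The remaining SMADs had single changes. SMAD9 had -50 points near its start in ShLy75-S and 89.4 points in an intron in Ly75-KO-S, SMAD5 had -54.2 points downstream of the gene in ShLy75-S, in a tile that also overlaps SMIM32, and SMAD4 had 38.5 points in exon 12 of 12 in Ly75-KO-S.

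**Figure D3:**
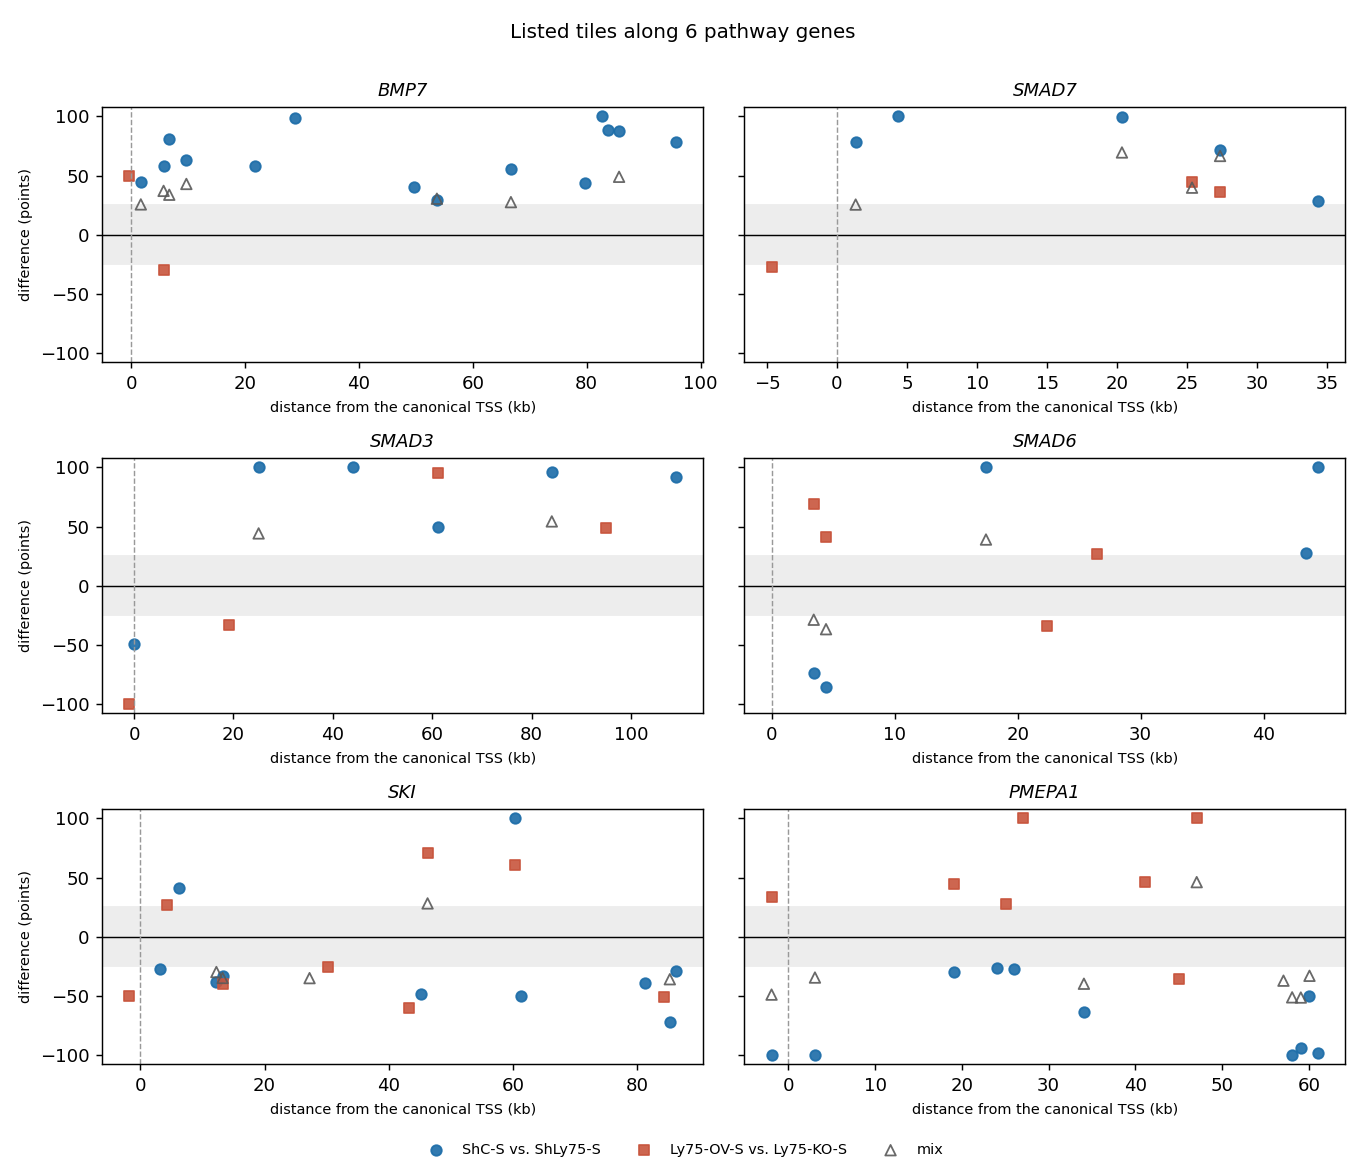
Each panel plots the methylation difference in percentage points (y axis) of the listed tiles of 1 gene against their distance from the canonical TSS in kb (x axis, dashed line at 0). Circles stand for ShC-S vs. ShLy75-S, squares for Ly75-OV-S vs. Ly75-KO-S and open triangles for the mix, and tiles under 25 points (gray) are not listed. All 14 circles of BMP7 and all 5 of SMAD7 lie above 0 and all 10 of PMEPA1 below it, while circles and squares of SMAD6 have opposite signs in the first 5 kb.

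SKI, a corepressor that binds SMAD complexes, had the most listed tiles of any member, 17 of 64 within reach. In ShC-S vs. ShLy75-S, 8 of its 10 tiles were lower, and the median was -35.8 points. In Ly75-OV-S vs. Ly75-KO-S, 5 of 8 were lower and the median was -32.6 points, and in the mix 4 of 5 were lower. The intron tile chr1:2173001-2174000 was lower throughout, with -33.7, -40 and -34.9 points. Another intron tile, chr1:2220001-2221000, was higher in both single comparisons, by 100 and 60.5 points. Upstream of the start, SKI was lower by 50 points in Ly75-KO-S, and the largest loss in ShLy75-S, 72.2 points, lay downstream of the gene. SKIL, its relative, had 1 tile of 25.7 points close to the start in ShLy75-S. SMURF1, a ubiquitin ligase for BMP SMADs, had 100 points in an intron in ShLy75-S and 51.3 points in an exon in Ly75-KO-S.

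Extracellular regulators held 19 tiles in ShC-S vs. ShLy75-S (12 higher, 7 lower), 17 in Ly75-OV-S vs. Ly75-KO-S (9 higher, 8 lower) and 9 in the mix (6 higher, 3 lower). LTBP4 showed the largest gain at a canonical TSS. Its tile chr19:41107001-41108000, with 88 CpGs, was higher by 83.6 points in ShLy75-S and by 54.5 points in the mix, and exons 10 and 11 were higher by 63.0 points in ShLy75-S. In Ly75-KO-S, the tile after the TSS was lower by 100 points. At an alternative start, another tile had 28.7 points in ShLy75-S and -50.1 points in Ly75-KO-S. LTBP3 was mostly lower in ShLy75-S, with -35.1 points in a tile over exons near its end, although exon 16 had 60.3 points. LTBP1 was higher in ShLy75-S in 4 of 4 tiles, by 36.6 to 100 points, but had -98.3 and -38.9 points in Ly75-KO-S. LTBP2 held both signs in ShLy75-S, with 3 tiles higher and 2 lower, and all 3 of its tiles in Ly75-KO-S were higher, 2 of them by 100 points.

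The secreted antagonists were few. GREM1, which binds BMPs, was lower by 55.5 points in ShLy75-S in the tile that ends 205 bp before the start (chr15:33009001-33010000, 63 CpGs), with -31.0 points in the mix. In Ly75-KO-S, the loss lay in the next tile, that of the TSS, with -53.1 points, and the tile after it was higher by 30.8 points. CHRD had a single tile with -65.1 points in Ly75-KO-S. LEFTY2, an inhibitor of NODAL, was higher by 56.5 points at its canonical TSS in ShLy75-S and by 36.2 points in the mix. BMP1, a protease that cleaves CHRD and is no BMP ligand, was listed in Ly75-OV-S vs. Ly75-KO-S alone, with 4 tiles higher and 1 lower.

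Listed in both single comparisons were 18 member tiles of 14 genes, which is 14.5% of the member tiles of ShC-S vs. ShLy75-S and 24% of those of Ly75-OV-S vs. Ly75-KO-S. Of these tiles, 8 had the same direction (44.4%), 4 higher and 4 lower, and 10 the opposite one. Over all 8345 tiles listed in both, 52.6% had the same direction. Those with the same direction lay in SKI and BMPR1B (2 tiles each), SMAD3, SMAD7, BMP4 and INHA. Among the ligands, 2 of 7 shared tiles had the same direction, and among the receptors and SMADs 2 of 4 each. Near a TSS the count was 3 of 9, and farther away 5 of 9. With the reverse order of subtraction in the knockout table, the 8 and 10 tiles would change places.

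**Figure D4:**
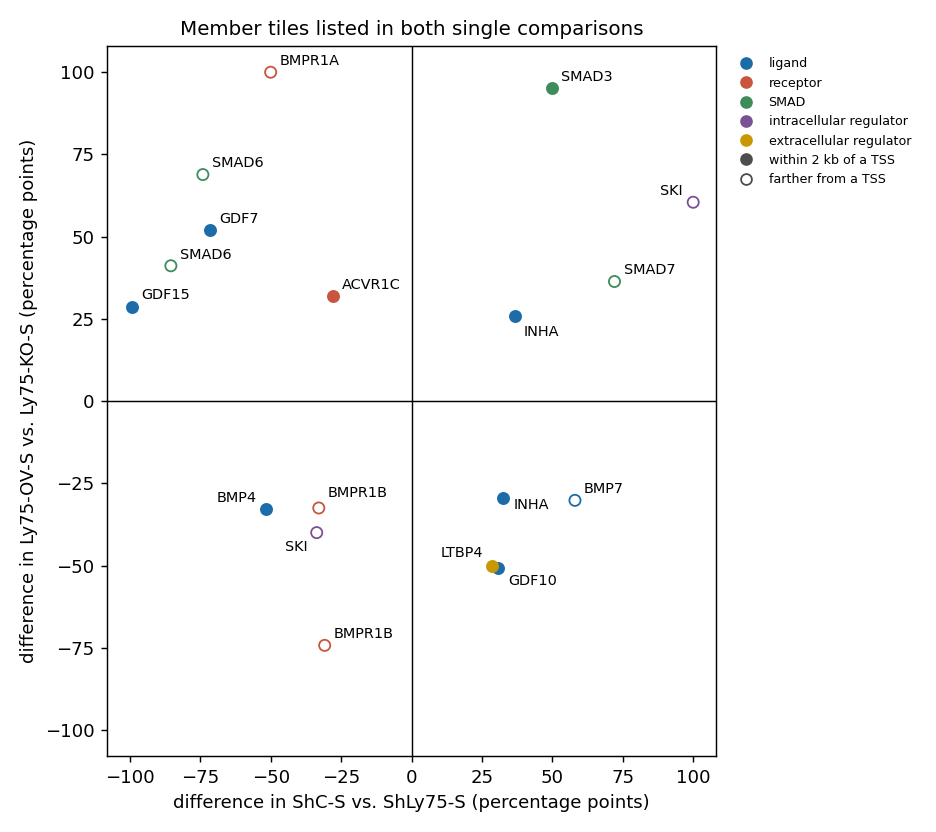
Each point is 1 of the 18 member tiles listed in both single comparisons, with its difference in ShC-S vs. ShLy75-S (x axis) and in Ly75-OV-S vs. Ly75-KO-S (y axis), both in percentage points. Colors give the role and filled points lie within 2 kb of a TSS. The 8 tiles in the upper right and lower left quadrants share their direction, and the 10 in the other quadrants do not.

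At the level of genes, 29 members (48.3%) had a tile in both single comparisons, 11 (18.3%) in ShC-S vs. ShLy75-S but not in Ly75-OV-S vs. Ly75-KO-S, and 4 (6.67%) the reverse. Over all protein-coding genes, these shares were 37.1%, 23.2% and 9.72%. In all tables, 22 members had a tile (36.7%, beside 26.0% of all genes), but only 10 tiles were identical throughout. The members have a longer median span than all genes, and the part of span length in these shares was not tested. Of the 53 tiles in the mix, 43 were also listed in ShC-S vs. ShLy75-S, all with its sign. With Ly75-OV-S vs. Ly75-KO-S, 11 shared the sign and 6 had the opposite one, and 3 tiles were in neither table. Over the 10 member tiles in all tables, the weights of both single comparisons in the mix were 0.590 and 0.296. The mix is built from the same libraries, so this describes its make-up.

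Tiles of 34 further genes of the pathway, targets and modulators such as the ID genes, BAMBI and ENG, were examined beside the members. In ShC-S vs. ShLy75-S, 21 of them (61.8%, beside 60.3% of all genes) held 41 tiles, 18 higher and 23 lower. In Ly75-OV-S vs. Ly75-KO-S, 15 (44.1%, beside 46.8%) held 29 tiles, 20 higher and 9 lower, and in the mix 11 (32.4%, beside 38.3%) held 22 tiles, 8 higher and 14 lower. The higher tiles were thus 43.9%, 69.0% and 36.4%, beside 64.7%, 54.7% and 65.0% of all listed tiles. Without PMEPA1, a TGF-beta target that restrains the pathway, they were 58.1%, 63.6% and 50%. All 10 PMEPA1 tiles in ShC-S vs. ShLy75-S were lower, from -100 to -26.9 points with a median of -79.1, and 6 of 7 in Ly75-OV-S vs. Ly75-KO-S were higher, with a median of 44.6 points. In its 5′ flank, 409 bp from a TSS, the same tile had -100 points in ShLy75-S and 33.6 points in Ly75-KO-S.

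The other genes of this list with large changes near a start were NBL1, BAMBI, ID2 and GDF3. NBL1, a secreted BMP antagonist, was higher by 100 points at an alternative TSS in ShLy75-S and by 54.9 points in the mix. BAMBI, a decoy receptor without a kinase, had -99.5 points 1551 bp from its start in ShLy75-S (q = 1.88e-195) and -57.3 points in the mix. ID2, a BMP target, had -70.9 points in ShLy75-S upstream of a start, and the tile before it -34.0 points there and 28.8 points in Ly75-KO-S. GDF3, a ligand of the NODAL type, was higher by 56.4 points near its start in ShLy75-S.

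No tile was listed in any table for 16 members. These were the ligands TGFB3, BMP3, BMP5, INHBA, INHBC, INHBE, GDF9, GDF11 and AMH, the receptors TGFBR1 and ACVR2B, the SMADs SMAD1 and SMAD2, SMURF2, and the extracellular regulators NOG and LEFTY1. They had a median of 8 tiles within reach of RRBS against 15 for the 44 genes with a tile. A tile that is not listed may have been covered and unchanged or not covered at all, which cannot be told apart in these tables.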

How the data were processed

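RRBS libraries of 4 SKOV3 clones, 1 each, were analysed through the 3 comparison tables that the authors deposited. Each row is a tile of 1000 bp with its methylation difference in percentage points and the p-value and q-value that the authors obtained with methylKit. The methods state a looser limit on the adjusted p than the deposited q-values show, all of which lie under 0.01; the coverage minimum is not given in the sources used here. The submitters' processing notes name Trim Galore 0.4.1, Bismark 0.16.1, FastQC and methylKit, with hg19, and the labels name Trimmomatic. The tables hold no values of single libraries, so total counts, depth and intervals could not be given and no test was run.

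Tiles were assigned with GENCODE release 44 on GRCh37 (Python 3.11.15, numpy 2.4.6, pandas 2.3.3, matplotlib 3.10.9) to gene spans extended by 5 kb and to TSSs of basic transcripts within 2 kb. Placing of tiles and reach of reads were tested on simulated data. Shares over all genes and all tiles stand in for a test. Members and lists were chosen with earlier results of these data known.

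Named by rule were members with an identical tile in all tables, up to 3 genes per role and single comparison with the largest difference near a TSS, members with opposite signs in the same tile, members with no tile, and 5 of the other pathway genes by the largest difference near a TSS. The remaining members are described to account for the list. The alternatives changed the extension, the threshold, the distance from a TSS, shared tiles and the fragment length. Leaving out BMP7, BMP7 with SKI, or PMEPA1 was chosen after seeing the data. Results on some items are not reported here.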

Additional observations from a re-analysis of the deposited data

Results flagged for a closer look

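The same tile had opposite signs in the single comparisons for 10 tiles of 9 member genes. Each value below is a difference in percentage points of 1 library against 1 other, and the difference between the comparisons was not tested.

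The SMAD6 tile at chr15:66998001-66999000 had -74.1 points in ShC-S vs. ShLy75-S and 68.9 points in Ly75-OV-S vs. Ly75-KO-S. The next SMAD6 tile had -85.4 points and 41.1 points. The GDF7 tile upstream of the start had -71.4 points and 52.1 points, and the GDF15 tile at the canonical TSS -99.2 points and 28.7 points. The BMPR1A intron tile had -50 points and 100 points, and the ACVR1C tile at an alternative start -28.0 points and 31.8 points. The reverse order was found in the others. The GDF10 intron tile had 30.6 points in ShC-S vs. ShLy75-S and -50.8 points in Ly75-OV-S vs. Ly75-KO-S, the BMP7 intron tile 58.0 points and -30.2 points, the INHA tile with 133 CpGs 32.5 points and -29.6 points, and the LTBP4 tile at an alternative start 28.7 points and -50.1 points.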

How the results depend on the processing

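Of 100 alternatives computed over the results, 75 stayed within 1.5 times the count or within the 95% Wilson interval of the share. These included every change of the extension, of the overlap, of shared tiles and of the fragment length. They also included the removal of BMP7 and SKI, which was chosen after seeing the data. The interval treats tiles as independent, which neighboring tiles are not, and it is wide for few tiles. The reversed order of subtraction in the knockout table was counted among the 75. With it, 55.6% of 18 tiles had the same direction, in place of 44.4%. It reverses every sign of that table, so its place among the 75 does not show that the directions are stable. Values below are given in the order ShC-S vs. ShLy75-S, Ly75-OV-S vs. Ly75-KO-S and mix.

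With 70 points or more in place of 25, member genes with a tile fell to 23, 10 and 1, tiles to 40, 14 and 1, the share of higher tiles became 77.5%, 71.4% and 100%, and genes with a tile near a TSS were 10, 3 and 0. Member tiles in both single comparisons then numbered 0. With 50 points or more, genes with a tile were 20 and 6 in Ly75-OV-S vs. Ly75-KO-S and the mix, tiles were 66, 33 and 7, genes near a TSS 17, 10 and 2, and the share of higher tiles in the mix was 85.7% of 7 tiles. Member tiles in both single comparisons were 5. With q-values under 1e-10, those in both were 10, and with a TSS distance of 1 kb, 11 genes had a tile near a TSS in Ly75-OV-S vs. Ly75-KO-S. Higher thresholds leave fewer tiles by construction.

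No paired analysis was possible because each clone has 1 library and the tables hold no values of single libraries. Replicates could not be left out for the same reason. Depth limits every value to an unknown extent, and a tile that is missing from a table cannot be read as unchanged.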
